A study of Mus musculus with 3 samples.

Results

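Gpnmb and the genes of a transcription factor family known to act on it were measured in chromatin RNA of endotoxin-treated macrophages. The 9 genes, of 55536 annotated in the gene tables, are Gpnmb, the 4 MiT-TFE factors Mitf, Tfeb, Tfe3 and Tfec, and the regulator genes Flcn, Fnip1, Fnip2 and Rragd. They were taken by symbol from the transcript tables and joined by gene identifier to the gene tables. They were chosen by levels, expected counts and TPM, that were already known in these same libraries. The levels are therefore a description, and no test was run on them. The cells were bone-marrow-derived macrophages of C57BL/6J mice, primary phagocytes of unrecorded sex and age, given 100 ng/ml of lipid A, the TLR4-activating moiety of bacterial endotoxin, 30 min before harvest. RNA bound to chromatin was depleted of ribosomal RNA and sequenced as total RNA, so that unspliced transcripts were kept. There was 1 group of 3 libraries with no unstimulated library analysed here, so levels are given and not induction.

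The labels give all libraries the same donor record and do not say whether separate mice were used, so the spread between them may be technical. The starting RNA was 1 µg for library 1, 250 ng for library 2 and 500 ng for library 3, and its amount cannot be told apart from the replicate. Depth on annotated genes was 16301150, 17033725 and 16205704 expected counts. Levels are in TPM, a length-corrected transcript abundance scaled to a fixed library total. The median detected coding gene had 3.48, 4.45 and 6.88 TPM in libraries 1 to 3, where detected means a mean of at least 10 expected counts. TPM was thus higher in library 3 for the median coding gene too, and log2 CPM, normalised counts without length correction, is given beside it. All 8 macrophage markers were detected and 7 reached 10 TPM (median 52.5 TPM). Of all 22028 annotated coding genes 10983 were detected. The 3 highest markers were Csf1r, the receptor for the growth factor of this lineage, at 176.9, 174.3 and 256.1 TPM, Lyz2 (lysozyme) at 136.1 ± 37.8 and Mertk, a receptor for dying cells, at 112.9 ± 23.6. Of 11 pigment-cell markers 2 were detected, and the summed TPM of that list lay between 2.48 and 6.53 TPM.

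Gpnmb is a transmembrane glycoprotein of lysosomal and pigment-cell membranes, found in macrophages that have taken up lipid or cell debris. MiT-TFE factors are basic helix-loop-helix leucine zipper proteins that bind E-box motifs as dimers and switch on lysosomal, autophagy and pigment genes. In fed cells the kinase mTORC1 at the lysosome phosphorylates them and keeps them in the cytoplasm. The folliculin complex of Flcn with Fnip1 or Fnip2 acts on the Rag GTPases, among them the product of Rragd, which bring these factors to mTORC1. Rragd is itself a known target of the family.

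The start regions of 5 windows are shown, each with letters searched for or from a gene whose values stand out below. The windows of Flcn, which also holds a match, and of Fnip2 are not shown. They come from RefSeq on build GRCm38.p6, which is mm10, and run from 250 bases before the RefSeq start to 20 after it. Capitals mark a motif match, and the Mitf pair are the most upstream start of the gene and the start of its pigment-cell form.
Gpnmb chr6:49036268-49036537 (plus strand): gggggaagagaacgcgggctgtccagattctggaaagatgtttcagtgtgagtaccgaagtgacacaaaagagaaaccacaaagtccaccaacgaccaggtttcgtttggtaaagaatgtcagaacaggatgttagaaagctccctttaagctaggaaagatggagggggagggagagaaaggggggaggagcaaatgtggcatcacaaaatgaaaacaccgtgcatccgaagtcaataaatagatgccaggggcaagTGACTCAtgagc
Tfec chr6:16898422-16898691 (minus strand): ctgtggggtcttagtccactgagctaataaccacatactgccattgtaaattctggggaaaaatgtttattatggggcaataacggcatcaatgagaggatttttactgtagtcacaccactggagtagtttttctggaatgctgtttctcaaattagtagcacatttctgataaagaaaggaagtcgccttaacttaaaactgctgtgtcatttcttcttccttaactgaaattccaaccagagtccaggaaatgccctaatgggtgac
Mitf upstream start chr6:97806808-97807077 (plus strand): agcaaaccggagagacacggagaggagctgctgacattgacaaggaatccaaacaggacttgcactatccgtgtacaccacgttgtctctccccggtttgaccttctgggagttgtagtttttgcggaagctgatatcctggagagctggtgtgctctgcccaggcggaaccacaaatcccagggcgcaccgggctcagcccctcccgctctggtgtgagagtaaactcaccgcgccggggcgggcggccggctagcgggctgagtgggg
Mitf pigment-cell start chr6:97991533-97991802 (plus strand): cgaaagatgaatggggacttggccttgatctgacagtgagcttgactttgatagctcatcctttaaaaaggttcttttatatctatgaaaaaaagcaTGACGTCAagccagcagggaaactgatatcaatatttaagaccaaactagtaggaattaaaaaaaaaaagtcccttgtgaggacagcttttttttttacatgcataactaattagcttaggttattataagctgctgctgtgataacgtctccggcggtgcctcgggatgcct
Fnip1 chr11:54437929-54438198 (plus strand): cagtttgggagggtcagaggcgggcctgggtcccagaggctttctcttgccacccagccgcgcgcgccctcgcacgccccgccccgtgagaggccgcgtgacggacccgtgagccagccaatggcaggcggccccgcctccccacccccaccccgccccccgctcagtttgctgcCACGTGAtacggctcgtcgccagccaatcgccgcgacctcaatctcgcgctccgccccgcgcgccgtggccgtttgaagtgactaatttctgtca

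All 9 genes matched the RefSeq promoter table, with 14 windows of 300 bases (250 before and 50 after each start). Both strands were searched for CACGTG and CATGTG, the E-boxes of this family, for their 7-base forms TCACGTG and TCATGTG, for the AP-1 motif TGACTCA and for the cyclic AMP response element TGACGTCA. TCACGTG and TCATGTG each contain the shorter E-box. The Fnip1 window held CACGTG, which as CACGTGA is also the 7-base form, 75 bases before the start. CACGTG was present in 7.15% of the 32851 windows of the table and the 7-base form in 3.77%. No window of the 9 genes held CATGTG, which 14.2% of all windows had. The Gpnmb window held TGACTCA at base 9 after the RefSeq start, a motif found in 5.20% of all windows. TGACGTCA, found in 1.79% of all windows, was present 153 bases before the pigment-cell start of Mitf and 49 bases before the start of Flcn. The windows of Tfec, Tfeb, Tfe3, Fnip2 and Rragd and the upstream Mitf window held none of these letters. A match describes the sequence and is no measure of binding.

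Gpnmb (ENSMUSG00000029816.10, mm10 chromosome 6, 49036546 to 49070929, plus strand, 5 annotated transcripts) stood at 797.0, 734.4 and 1236 TPM in libraries 1 to 3. Its mean was 922 ± 273 TPM (SD, n = 3), from 48558, 40473 and 44664 expected counts. Library 3 was the highest in TPM, but in log2 CPM library 1 was highest, at 11.62 against 11.28 and 11.28. By TPM, Gpnmb ranked 5, 6 and 5 among 22028 coding genes in libraries 1 to 3. It took 0.298%, 0.238% and 0.276% of all expected counts. The SD of its log2 CPM was 0.20, against a median of 0.29 over the 14396 detected genes. The authors' second quantification, made from the reads without the transcriptome alignments, gave 1226 ± 358 TPM and rank 9 by the mean. In bulk RNA of this kind, more cells with the transcript and more transcript per cell cannot be told apart.

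Values are of the first quantification unless the second is named. In the first, no member of the 10 gene lists described below had a higher mean TPM than Gpnmb, but in the second Lgals3 did, at 1614 TPM against 1226. Gpnmb was above Csf1r by 2.17 ± 0.10 in log2(TPM + 0.1), the log scale used for all level differences, with the same sign in 3 of 3 libraries. Among its chromosomal neighbours, Malsu1, a mitochondrial ribosome factor gene 2865 bases downstream on the same strand, had 16.8, 22.3 and 66.4 TPM. Svs1, the nearest coding gene upstream, had at most 0.02 TPM in any library. The high level was therefore found at Gpnmb and not at either neighbour. The 5 coding genes nearest to Gpnmb in log2(TPM + 0.1) over the 3 libraries, out of 10983 detected, were Sqstm1, Irf1, Lilr4b, Hnrnpa2b1 and Ccnl1. Sqstm1, an autophagy receptor, was the nearest, with 716, 631.3 and 891.4 TPM and a distance of 0.54. Irf1, an interferon regulatory factor, had 731.2, 557.7 and 943.9 TPM. Lilr4b, a myeloid receptor with a near-identical paralog between which reads may be split, had 911.4, 960.5 and 1602 TPM. Hnrnpa2b1, an RNA-binding protein gene, and Ccnl1, a cyclin gene, had means of 744.4 and 707.0 TPM. Likeness here is of level over 3 libraries and says nothing of shared control.

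**Figure D1:**
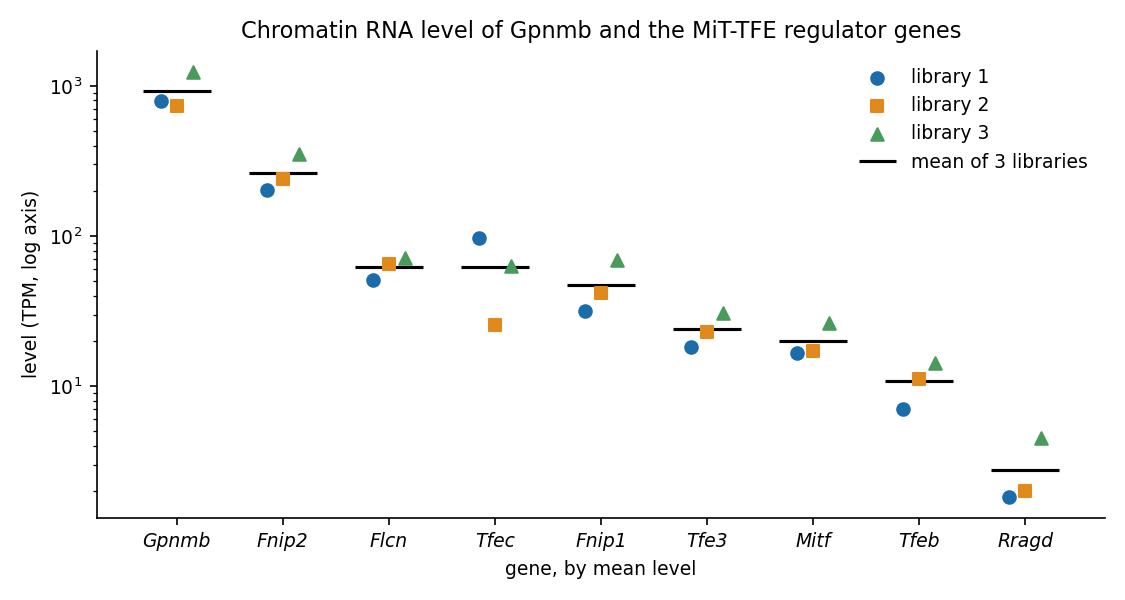
Level of each of the 9 genes in TPM (log axis), with 1 point per library and a line at the mean of 3 libraries. Gpnmb lies between 734.4 and 1236 TPM, above every other member in each library, and Tfec has the widest scatter on this axis, from 25.5 to 97.6 TPM.

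The order of the members by mean TPM was Gpnmb, Fnip2, Flcn, Tfec, Fnip1, Tfe3, Mitf, Tfeb and Rragd. Neighbours were taken to differ beyond their spread where the difference in log2(TPM + 0.1) had the same sign in 3 libraries and a mean above its SD. That held for 6 of 8 neighbour pairs. Flcn and Tfec did not differ beyond their spread, at 0.19 ± 1.14 with the same sign in 2 of 3 libraries. Nor did Tfec and Fnip1, at 0.26 ± 1.21, where library 1 went one way and libraries 2 and 3 the other. The pair Tfe3 and Mitf differed by only 0.27 ± 0.14 and Mitf and Tfeb by 0.90 ± 0.30, and both differences changed sign in the second quantification, to -0.33 and -0.18. There the 4 factors stood at 82.1 ± 53.4 TPM for Tfec, 38.3 ± 10.03 for Tfeb, 33.6 ± 7.40 for Mitf and 26.6 ± 4.67 for Tfe3. Tfec was the highest factor by mean TPM in both quantifications, but in library 2 of the second Tfeb was above it, at 34.9 against 29.2 TPM. Without length correction Tfe3 was above it, with a mean log2 CPM of 6.81 against 6.54. The order of the factors was therefore not settled by these tables.

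Each of the 4 factors was detected. Tfec, the family member with the narrowest tissue range and known from macrophages, had 97.6, 25.5 and 63.1 TPM (62.1 ± 36.1, SD, n = 3), from 3347, 797 and 1356 expected counts. Library 1 was the highest and library 2 the lowest, and the deposited credible bounds of the 3 libraries (89.3 to 98.4, 22.1 to 27.0 and 54.3 to 63.6 TPM) did not overlap. Those bounds cover estimation error within a library, and those of Gpnmb, Tfe3, Fnip1 and Fnip2 did not overlap either. Without library 1 the mean was 44.3 TPM. Tfe3, which with Tfeb directs lysosomal genes, had 18.3, 23.0 and 30.7 TPM. Mitf, a factor that pigment cells and osteoclasts need, had 16.5, 17.2 and 26.2 TPM from 1174, 1093 and 1074 expected counts. Tfeb, the best known regulator of lysosome formation, had 7.05, 11.1 and 14.4 TPM from 250, 304 and 290 expected counts. In TPM these 3 genes were lowest in library 1 and highest in library 3, as the median coding gene was. In log2 CPM library 3 was the lowest for Mitf, at 6.25, 6.07 and 5.91, and for Tfe3, at 6.84, 7.06 and 6.55. Tfeb had 4.02, 4.22 and 4.02, with libraries 1 and 3 alike.

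Gpnmb exceeded every factor in each library. Its level was above that of Mitf by 5.52 ± 0.09 in log2(TPM + 0.1), a ratio of 45.7. It was above Tfe3 by 5.25 ± 0.23, above Tfeb by 6.42 ± 0.38 and above Tfec by 4.05 ± 0.93. The SD of the difference to Tfec was the widest, with 3.03, 4.84 and 4.29 in libraries 1 to 3. Of the summed TPM of the 4 factors, which was 139.5, 76.8 and 134.4, Tfec held 70.0%, 33.2% and 47.0%. Tfe3 held 22.0% ± 8.45 of it, Mitf 17.9% ± 5.44 and Tfeb 10.1% ± 4.72 as means of 3 libraries. All transcript models count in these shares. Models with unspliced intron sequence carried 82.4%, 63.3% and 63.0% of Tfec TPM and a mean 85.0% of Tfe3 TPM. The full coding transcript Tfec-201 had 5.27, 4.18 and 7.44 TPM, below the coding Mitf-202 at 6.94, 7.22 and 10.25. The second quantification placed this pair in the opposite order. There Tfec-201 took a mean 26.0% of Tfec at 82.1 TPM, and Mitf-202 18.5% of Mitf at 33.6 TPM.

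Between libraries, Tfec was the member that varied most. Its log2 CPM was 7.76, 5.61 and 6.24, a range of 2.15 or 4.44-fold, and the SD of 1.11 was above that of 98.2% of the 14396 detected genes. Library 1 exceeded the higher of the other libraries by 1.52, and 44 other detected genes (0.306%) stood as far above both others in that library. Without library 1 the range was 0.63. Fnip2 lay at the other end, with log2 CPM of 10.29, 10.24 and 10.21 and an SD of 0.04, below that of all but 1.76% of detected genes. The other 7 members had SDs of 0.11 to 0.35, with Fnip1 and Tfeb lowest and Rragd highest. Because each library had its own RNA amount, the part of that amount in the Tfec difference cannot be told apart from the replicate.

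**Figure D2:**
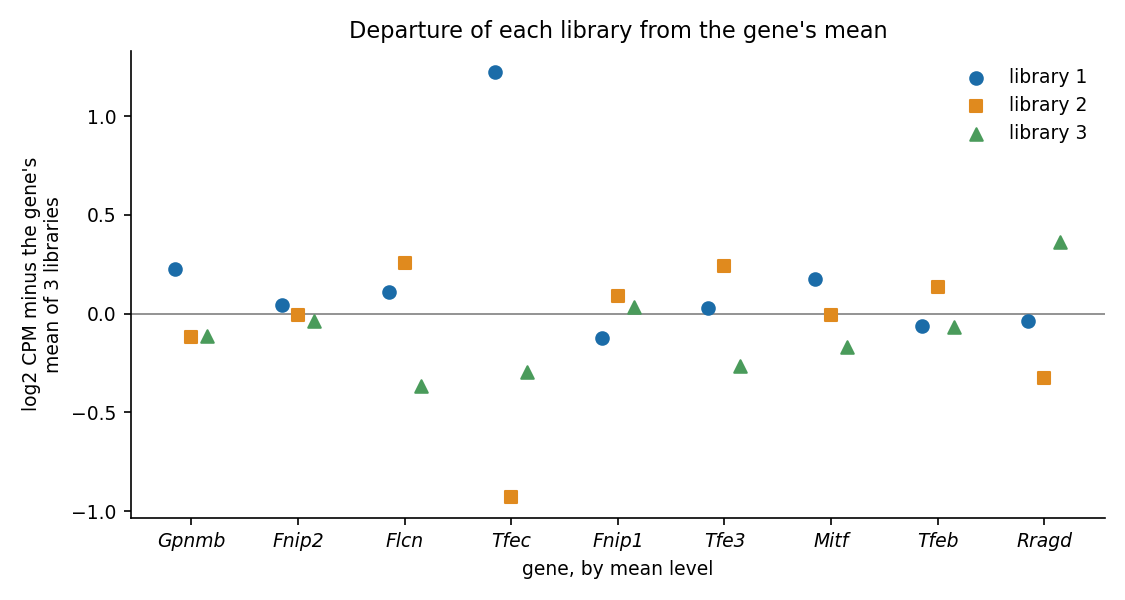
Log2 CPM of each gene in each library minus that gene's mean over the 3 libraries. Tfec departs by more than any other member, upward in library 1 and downward in library 2, and the 3 points of Fnip2 lie within 0.08 of each other.

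The Tfec difference was not shared equally among its transcripts. Tfec (ENSMUSG00000029553.10, chromosome 6, 16833373 to 16898441, minus strand) has 5 annotated transcripts, of which 2 are retained-intron models, transcripts annotated with unspliced intron sequence. Tfec-202 is one of these, with 518 of its 688 bases outside the exons of coding transcripts, and Tfec-203 is the other, with 2779 of 3384. In CPM, here expected counts scaled to the library total alone, Tfec-202 had 42.8, 6.40 and 9.76, so library 1 was 5.30 times the mean of the other libraries. Tfec-203 had 141.5, 28.5 and 57.0, a ratio of 3.31. The full coding transcript Tfec-201 had 13.7, 9.31 and 11.5, a ratio of 1.32, from 223.3, 158.6 and 186.4 counts. The short coding model Tfec-204, which starts inside the gene, had 7.30, 2.52 and 5.37, a ratio of 1.85. Library 1 was thus the highest for all 4 models with counts, and most so for those made mainly of intron sequence.

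That excess was not a general feature of intron models in library 1. Over 10503 retained-intron models with a mean of at least 10 counts, the median ratio of library 1 to the mean of the others was 0.94, and over 18022 coding models it was 0.90. Of the intron models, 10 others reached the ratio of Tfec-202 and 49 others that of Tfec-203. Retained-intron models together took 14.05%, 13.0% and 14.7% of expected counts in libraries 1 to 3. The second quantification gave ratios of 4.82 for Tfec-202, 3.17 for Tfec-203 and 1.33 for Tfec-201, so the pattern was present in both. The 2 quantifications differed on the share of Tfec-201, which was 11.2% of Tfec TPM in the first and 26.0% in the second. In level over the 3 libraries, the coding genes nearest to Tfec were Itgav at a distance of 0.75, Adam17 at 0.81, Mthfsl at 0.82, Rnf19a at 0.87 and Ddhd1 at 0.90. Itgav, an integrin subunit, had 86.8, 42.4 and 59.0 TPM, and Adam17, the protease that sheds surface proteins including Gpnmb, had 82.7, 41.9 and 51.5 TPM. Itgav, Adam17 and Ddhd1 were highest in library 1 in TPM, whereas Mthfsl, at 56.8, 29.2 and 70.6 TPM, and Rnf19a, at 53.9, 22.6 and 64.3, were highest in library 3.

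**Figure D3:**
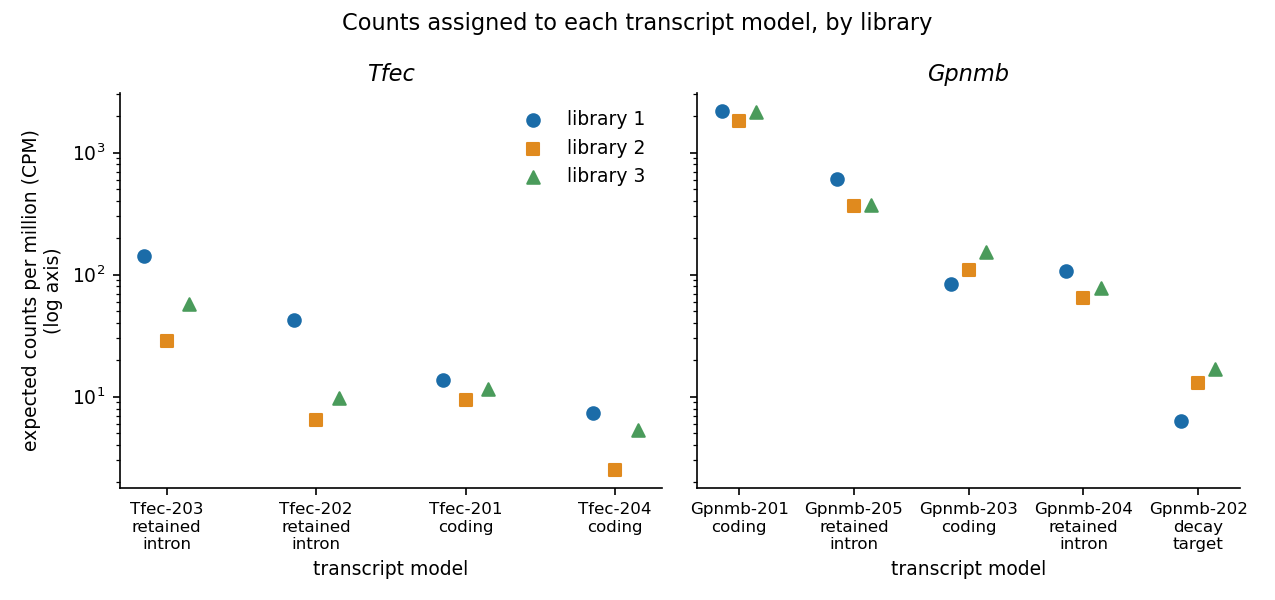
CPM of expected counts (log axis) of the transcript models of Tfec and Gpnmb with any count, by library. For Tfec the library 1 point stands well above the others for Tfec-203 and Tfec-202 and close to them for Tfec-201, and for Gpnmb the coding model Gpnmb-201 varies least.

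Intron models of Gpnmb were also highest in library 1, by less. The coding transcript Gpnmb-201 had 2178, 1825 and 2136 CPM, a ratio of library 1 to the mean of the others of 1.10. Gpnmb-205, a retained-intron model that starts at the gene's start and has 1654 of 1832 bases outside coding exons, had 604.7, 365.3 and 372.0, a ratio of 1.64. Gpnmb-204, an internal retained-intron model, had 106.5, 64.5 and 78.3, a ratio of 1.49. The other coding model Gpnmb-203 and the decay-target model Gpnmb-202 had ratios of 0.64 and 0.42. In the second quantification Gpnmb-203 again had a ratio below 1, at 0.77, but that of Gpnmb-202 was 1.38. Of retained-intron models in general, 92.4% had a lower ratio than Gpnmb-205. By TPM, Gpnmb-201 carried 47.7%, 49.9% and 50.1% of the gene, Gpnmb-205 28.4%, 21.7% and 18.9%, and Gpnmb-204 18.2%, 14.9% and 15.5%. The second quantification gave Gpnmb-201 36.8% and gave Gpnmb-202, a short decay-target model of 365 bases, 26.2% against 7.17% in the first. The split among Gpnmb models therefore depends on the quantification.

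Retained-intron models carried 39.2% ± 6.52 of Gpnmb TPM, close to the median of 39.3% over 6777 detected coding genes that have such a transcript. The share was 85.0% ± 2.82 for Tfe3, above that of 97.2% of those genes, with Tfe3-208 alone at 34.0% and 3459 of its 6328 bases outside coding exons. It was 69.6% ± 11.1 for Tfec, 58.6% ± 4.21 for Fnip2, 48.5% ± 1.70 for Flcn, 41.4% ± 4.25 for Mitf and 22.7% ± 5.41 for Tfeb. Fnip1 and Rragd have no such model. These shares count whole models, not intron bases: Fnip2-206 has 55 of 2737 bases outside coding exons and Flcn-205 has 311 of 3567. The order with Tfe3 highest and Tfeb lowest also held in the second quantification, at 81.8% and 15.8%. Coding models of Tfe3 thus held 14.7% ± 2.65 of its TPM, spread over 8 transcripts.

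**Figure D4:**
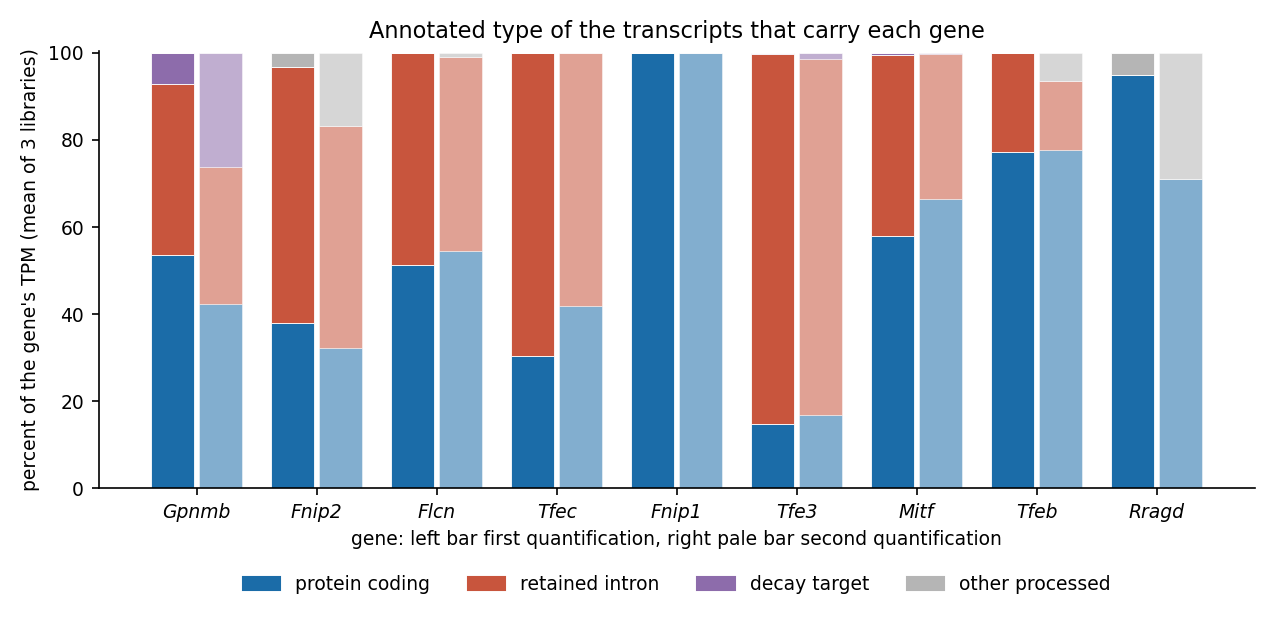
Percent of each gene's TPM on coding, retained-intron, decay-target and other processed transcripts, as the mean of 3 libraries, with the left bar from the first quantification and the pale right bar from the second. Retained-intron models hold 85.0% of Tfe3 and none of Fnip1 or Rragd, which have no such model.

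Mitf (ENSMUSG00000035158.15, chromosome 6, 97807052 to 98021349, plus strand) is transcribed from several promoters that give forms with different first exons. Its 8 annotated transcripts fall into 4 groups of starts, at 0, 122.7, 133.9 and 184.7 kb from the first. The most upstream group, at 97807052 to 97807058, carried 82.9%, 79.4% and 86.1% of Mitf TPM. Nearly all of it was the coding transcript Mitf-202, at 41.0% ± 1.71, and the retained-intron model Mitf-206, at 41.4% ± 4.25. The most downstream group, at 97991792 to 97991921, lies at the RefSeq start of the pigment-cell form and carried 12.5% ± 3.99. Mitf-201, the transcript of that form, held 1.28% ± 0.43 from 13.3, 8.14 and 6.59 counts. The upstream group was the highest in each library and the groups did not overlap.

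The shares differed in the second quantification, where the upstream group held 53.8% ± 7.15, the downstream group 30.2% ± 4.996 and Mitf-201 17.6%. The start at 97929799 held 12.4% ± 2.22 there and 0 counts in the first quantification. The upstream group led in all 3 libraries in both, but in the second its retained-intron model Mitf-206 held 33.3% of Mitf TPM. The upstream coding transcripts Mitf-202 and Mitf-207 held 18.5% and 1.99% there, against 17.6% for Mitf-201 and 12.4% for Mitf-208 downstream. Among coding transcripts, the start that led by TPM therefore depended on the quantification, as did the level of the downstream forms. Gm15531, a pseudogene on the opposite strand inside Mitf, had 24.3 counts on average, and with the strand setting unknown its reads cannot be told from those of Mitf introns.

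**Figure D5:**
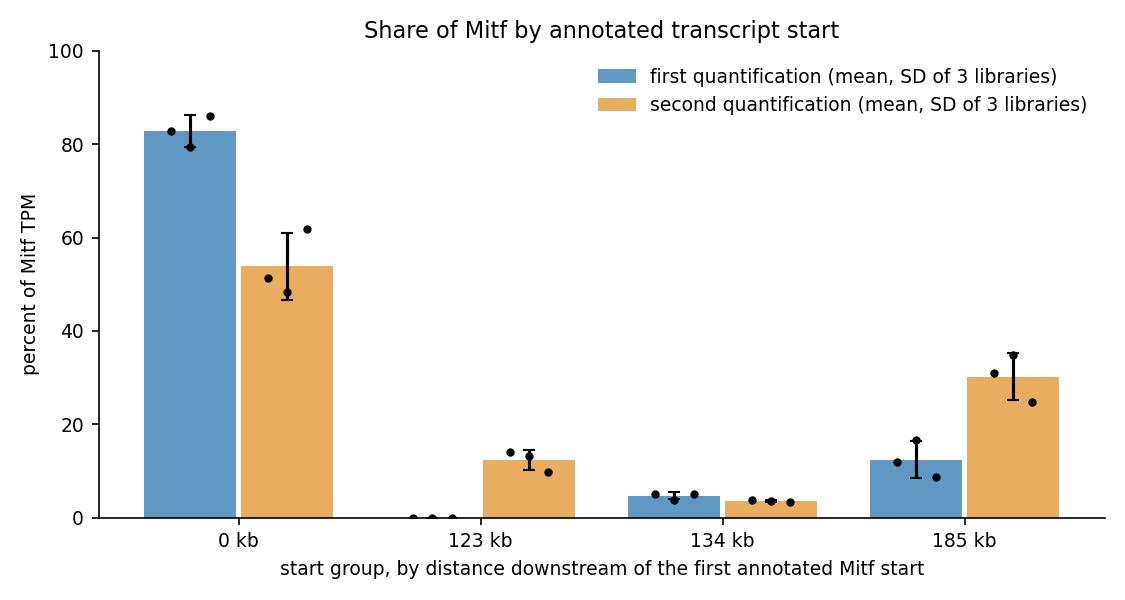
Percent of Mitf TPM on each group of annotated starts, placed by distance in kb from the first start, with bars at the mean, whiskers of 1 SD and points for the 3 libraries. The start at 0 kb is highest in both quantifications, at 82.8% and 53.8%, and the start at 184.7 kb holds 12.5% and 30.2%.

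Transcripts of Tfeb and Tfe3 were spread more thinly. Tfeb (ENSMUSG00000023990.18, chromosome 17, 47737030 to 47792419, plus strand) has 15 annotated transcripts in 11 groups of starts, none above 26.5% of its TPM by the mean. It had 250 to 304 expected counts in all, and which start led depended on the library and the quantification. By the mean of the first quantification it was the group at 47785720 to 47786155, with 34.2%, 20.8% and 24.5% of TPM, but in library 2 the start at 47789441 was higher, at 28.0%. In the second quantification the first of these held 3.55% and the group at 47769238 was highest, at 16.1%. The second quantification assigned 2.31 times as many counts to Tfeb, against a median of 1.61 for detected coding genes. Tfe3 (ENSMUSG00000000134.17, chromosome X, 7762560 to 7775202, plus strand) had 1765, 2167 and 1677 expected counts over 14 transcripts.

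Among the genes of the folliculin complex, Fnip2 had the highest RNA level. Fnip2 (ENSMUSG00000061175.11, chromosome 3, 79455974 to 79567796, minus strand) had 202.9, 239.1 and 350.4 TPM (264 ± 76.9, SD, n = 3) and ranked 62 of 22028 coding genes by the mean. Its paralog Fnip1 (ENSMUSG00000035992.15, chromosome 11, 54438199 to 54518235, plus strand) had 31.9, 41.8 and 68.7 TPM. Fnip2 was above Fnip1 by 2.51 ± 0.16 in log2(TPM + 0.1), a ratio of 5.69, in 3 of 3 libraries. Flcn (ENSMUSG00000032633.12, chromosome 11, 59791408 to 59810016, minus strand), the shared partner, had 51.1, 65.0 and 71.1 TPM. Fnip2 exceeded it by 2.06 ± 0.22. Fnip1 minus Flcn was -0.45 ± 0.35, with the same sign in 3 of 3 libraries but only -0.05 in library 3.

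The level of Fnip2 rests partly on models that are not the full coding transcript. Its leading model by mean TPM was Fnip2-206, a retained-intron model that starts inside the gene, at 31.7%, 38.8% and 25.4%. Only 55 of its 2737 bases lie outside coding exons. The full coding transcript Fnip2-203 followed at 24.9%, 21.4% and 29.4%, and was the higher of the pair in library 3. By counts Fnip2-203 led in each library, with 585.3, 518.2 and 723.8 CPM against 267.2, 333.1 and 221.4 for Fnip2-206. Corrected for length, Fnip2-203 alone had 50.4, 51.1 and 102.9 TPM, above the 27.4, 37.5 and 59.0 TPM of Fnip1-201, the full coding transcript of Fnip1, in each library. In the second quantification Fnip2-206 was above Fnip2-203 in each library, with means of 25.7% and 14.9% of Fnip2 TPM. Fnip2-201, Fnip2-202 and Fnip2-204 were also above Fnip2-203 there by the mean, at 17.4%, 16.8% and 16.1%. Gm3513, a noncoding model inside a Fnip2 intron on the same strand, had 220.3 counts on average, against 19288 to 21201 for Fnip2. Fnip1 was the opposite case, with 87.1% ± 2.27 of its TPM on the full transcript Fnip1-201 and the remainder on Fnip1-202. In Flcn the retained-intron model Flcn-205, with 311 of 3567 bases outside coding exons, carried 40.9% ± 2.52. The coding models Flcn-203 and Flcn-202 carried 26.9% ± 1.38 and 21.9% ± 1.30.

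Rragd (ENSMUSG00000028278.14, chromosome 4, 32983037 to 33022180, plus strand), the Rag GTPase gene that this family controls, was the lowest member by TPM. It had 1.84, 2.01 and 4.50 TPM from 219, 190 and 337 expected counts. Library 3 was the highest also in log2 CPM, at 4.23 against 3.83 and 3.55. Its mean without library 3 was 1.93 TPM, and it lay below the median of 4.98 TPM over detected coding genes. The second quantification gave 5.10 ± 3.22 TPM. Rragd was below Tfeb, the next lowest, by 1.98 ± 0.39 in log2(TPM + 0.1), in 3 of 3 libraries. Without length correction the mean difference was 0.22, and in library 3 Rragd was above Tfeb, at 4.23 against 4.02 in log2 CPM.

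The pathway lists stand beside all 22028 annotated coding genes, of which 10983 were detected and 3659 of those reached 10 TPM by their mean. That is 33.3% of the detected coding genes, whose median was 4.98 TPM. Of 9 genes for the other Rag GTPases and the Ragulator scaffold that holds them on the lysosome, 7 were detected and 3 reached 10 TPM. Their median was 1.53 TPM with the undetected genes included. Over the detected ones, the set comparable to the 4.98 TPM above, it was 8.59 TPM. Lamtor3 had 47.0 ± 11.0 TPM, the arginine sensor Slc38a9 31.2 ± 17.5 and Rragc, the closest paralog of Rragd, 14.1 ± 6.12, while Rragb (8 counts on average) and Lamtor2 (5.33) were not detected. All 13 genes of mTORC1 and nutrient sensing were detected and 8 reached 10 TPM (median 16.5), with the mTORC1 subunit Rptor at 33.4 ± 6.96, its activator Rheb at 30.0 ± 10.2 and Tsc2, which restrains Rheb, at 27.9 ± 7.86 TPM. Of 17 genes that modify MiT-TFE proteins or carry them between cytoplasm and nucleus, all were detected and 12 reached 10 TPM (median 14.7). Among them the exportin Xpo1 had 56.9 ± 14.8 TPM, the lysosomal calcium channel gene Mcoln1 46.7 ± 18.3 and the calcineurin subunit Ppp3ca 39.1 ± 12.5.

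Lysosome and autophagy genes known as targets of the family were widely present. Of 37 such genes 36 were detected and 31 reached 10 TPM, with a median of 26.2 ± 2.71 TPM. Sqstm1 had 746.3 ± 132.7 TPM, Psap, the saposin precursor, 621.9 ± 107.7 and Ctsb, a cathepsin, 276.3 ± 46.2, and Ppargc1a, with 2 counts on average, was not detected. Of 14 genes of lipid-associated macrophages, the state in which Gpnmb is best known, all were detected and 11 reached 10 TPM (median 36.8). Spp1 (osteopontin) had 166.5 ± 69.9 TPM, Lgals3 (galectin-3) 156.4 ± 31.1 and Fabp4, a fatty acid carrier, 126.2 ± 12.1, each below Gpnmb in every library. The second quantification gave Lgals3 1614 TPM, above Gpnmb, so its place relative to Gpnmb depends on the quantification.

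Among 8 genes for reported Gpnmb partners and shedding proteases, 7 were detected and 4 reached 10 TPM (median 22.2). Sdc4, a syndecan, had 246.3, 191.4 and 600.5 TPM, and its mean without library 3 was 218.8 TPM. Cd44 had 74.5 ± 11.8 TPM, and Egfr, with 3 counts on average, was not detected. Of 9 early endotoxin response genes all reached 10 TPM (median 261.5), with Tnfaip3 at 534.8 ± 140.6, Cxcl2 at 470.4 ± 162.5 and Nfkbia at 404.9 ± 171.1 TPM. Gpnmb was above each of these 3 in every library.

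Of the genes that flank or overlap the members, 4 had a higher mean TPM than the member beside them. Frmd4b, upstream of Mitf on the opposite strand, had 202.3 TPM, Mdfic and Gripap1, beside Tfec and Tfe3, had 75.6 and 78.3, and Ube2j1, beside Rragd, 2.94. Rapgef6, beside Fnip1, had 26.1 TPM, Rapgef2 and Ppid, beside Fnip2, 37.8 and 13.6, and Tes, the other neighbour of Tfec, 2.35. Cops3 and Pld6, beside Flcn, had 4.87 and 0.49 TPM, and Ankrd6, beside Rragd, 0.07. Ccdc120, beside Tfe3, had 0.36 TPM and Mdfi, beside Tfeb, 0.01, while Gm765, Pgc and Meikin, beside Mitf, Tfeb and Fnip1, were at 0. Of the genes inside or across a member, Gm17359 over the end of Fnip2 and Gm11943 inside Rragd, both on the opposite strand, had 3.67 and 5 counts on average, and Gm24198 inside Fnip1 had 0.

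Marker genes of pigment cells were mostly low, and those of osteoclasts were mixed. Of the 11 pigment-cell genes 0 reached 10 TPM (median 0.01), the highest being the endothelin receptor gene Ednrb at 3.50 ± 1.64 and the stem cell factor receptor gene Kit at 0.49 ± 0.25, followed by Trpm1 at 0.13 ± 0.21 from 2 counts on average. Mlana and Oca2 had 0 counts in all 3 libraries (Mlana had 0.14 TPM in the second quantification), which allows up to 3 counts or 0.18, 0.18 and 0.19 CPM per library, for counting error only. Of 12 osteoclast genes 7 were detected and 2 reached 10 TPM (median 0.72), Clcn7, a lysosomal chloride exchanger, at 71.8 ± 18.3 and Tnfrsf11a, the receptor RANK, at 13.9 ± 4.83 TPM. Nfatc1, the factor that RANK signalling induces, followed at 8.24 ± 3.99 TPM. Calcr and Ocstamp had 0 counts, but the second quantification gave Ocstamp 5.59 TPM. The osteoclast counts lay near the shares over all 22028 annotated coding genes, of which 10983 were detected and 3659 of those reached 10 TPM.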

How the data were processed

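Chromatin RNA was measured in 3 libraries of 1 group. The authors' reference was GENCODE M21 on mm10, according to notes deposited with the tables. Gene levels and the first of the transcript tables hold expected counts, TPM, posterior mean TPM with credible bounds, and percent of the gene per transcript, per the file headers and derived from transcriptome alignments. The second transcript table, deposited beside them, holds estimated counts and TPM made from the reads directly. The sources used here name no tool, version, level of the credible bounds or strand setting, so reads of overlapping genes on opposite strands are uncertain. The bounds belong to the posterior mean TPM, and the point TPM can lie outside them.

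The members, gene lists and motifs were chosen with earlier results of these data known. Genes named were the 9 members, in each list the 3 genes of highest mean TPM with up to 2 undetected ones, the 5 detected coding genes nearest in level to Gpnmb and to the highest factor, and overlapping or flanking genes. All 55536 gene identifiers matched the annotation. Entries that name no gene held 1.03%, 0.245% and 0.218% of expected counts and were left out. Log2 CPM came from rounded expected counts with edgeR 4.0.16 in R 4.3.3 (TMM scaling, prior count 0.5), and DESeq2 1.42.0 size factors were an alternative. Level differences used log2(TPM + 0.1). No pair of libraries agreed within sampling noise (chi-square per degree of freedom of 42.6 to 80.1). The spread and nearest-gene steps were tested on simulated counts. Tables and plots were made with pandas 2.3.3, numpy 2.4.6 and matplotlib 3.10.9 under Python 3.11.15. With 1 group, no test between groups was made.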

Additional observations from a re-analysis of the deposited data

How the results depend on the processing

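Alternatives fixed for these results were the second quantification, posterior mean estimates, TPM over genes of at least 300 nt, a pseudocount of 1, log2 CPM without length, detected members only, DESeq2 size factors, genes with any count, and leaving out each replicate. Leaving out 1 of 3 replicates cannot move a mean by its SD, so it says nothing of stability. It gave 766 to 1016 TPM for Gpnmb, 44.3 to 80.4 for Tfec and 3.66 to 4.57 on the log2 scale for Gpnmb minus Tfec. In the second quantification, Tfe3 minus Mitf turned to -0.33 and Mitf minus Tfeb to -0.18, and the cause was not tested. The other neighbour differences that exceeded their spread, and those of Gpnmb to the 4 factors, kept the sign of their mean under each alternative. Other pairs of factors were not run. Gpnmb had 1226 TPM in the second quantification and 2661 with the first rescaled over genes of at least 300 nt. In the second, Gpnmb minus Mitf, Tfeb and Tfe3 were 5.16, 4.98 and 5.49 and Tfeb minus Rragd 3.04. Shares there of the transcripts that led in the first were 36.8% for Gpnmb-201, 33.3% for Mitf-206, 9.21% for Tfeb-210 (below Tfeb-213 at 16.1%), 28.3% for Tfe3-208, 33.6% for Flcn-205 and 76.9% for Fnip1-201. List medians there were 3.52 TPM for Rag and Ragulator genes, 29.1 for genes that modify MiT-TFE proteins, 42.3 for lysosome genes, 47.6 for Gpnmb partners, 0.17 for pigment, 2.65 for osteoclast and 76.6 for macrophage genes. With detected members only they were 8.59 for Rag and Ragulator genes, 35.5 for partners, 2.00 for pigment and 3.27 for osteoclast genes. Posterior mean TPM gave Mitf minus Tfeb as 0.56. Without length correction, differences were 5.32, 7.31 and 4.58 for Gpnmb minus Mitf, Tfeb and Tfe3, 1.15 for Gpnmb minus Fnip2, 2.39 for Fnip2 minus Flcn, -1.84 for Tfec minus Fnip1, 1.57 for Fnip1 minus Tfe3, 0.74 for Tfe3 minus Mitf, 1.99 for Mitf minus Tfeb and 0.22 for Tfeb minus Rragd, as the genes differ in length. Among all 24084 genes with any count, the library SD of Tfec stood at the percentile 87.4, of Tfe3 at 28.8, of Flcn at 38.2 and of Rragd at 40.6. No paired analysis was possible because there is 1 group. Depth limits Tfeb and Rragd most, with at most 337 expected counts per library.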

Other observations

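The transcript pattern of Rragd belongs to no comparison above, and that of Tfe3 adds to the retained-intron shares given above. Rragd was carried by different coding models in different libraries: Rragd-203 held 37.6%, 53.4% and 81.6% of its TPM in libraries 1 to 3 and Rragd-202 held 49.1%, 31.7% and 18.4%. The second quantification gave Rragd-203 56.2% and Rragd-202 4.40% as means, and the gene had 190 to 337 expected counts per library. In Tfe3, the 4 retained-intron models Tfe3-208, Tfe3-212, Tfe3-210 and Tfe3-213 held 34.0%, 27.3%, 15.7% and 8.04% of TPM, and the 8 coding models together held 14.7%, of which the short model Tfe3-214 (408 bases) held 8.04%. Tfe3-201, the first coding model in the annotation's numbering, had 0 counts in all 3 libraries in the first quantification.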
